A study of Mus musculus with 16 samples.

Results

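The 10 genes described here are T (Brachyury, also Tbxt), Eomes, Tbx1, Tbx2, Tbx4, Tbx5, Tbx6, Tbx15, Tbx18 and Tbx20. They are 10 of the 21900 protein-coding genes in the RefSeq table used, and were chosen by family membership and developmental role. The series asked how histone marks differ when mouse embryonic stem cells (mESCs) lose Mettl14, a subunit of the complex that writes N6-methyladenosine on RNA. ChIP-seq peaks of H3K4me3, H3K27ac and H3K27me3 were compared between Mettl14 knockout cells (CKO in the labels) and Mettl14 control cells, with 2 libraries per group and mark. All groups were C57BL/6 mESCs grown in serum medium with LIF, CHIR99021 (a GSK3 inhibitor) and PD0325901 (a MEK inhibitor), and the labels name no Cre line, clone or time after deletion. All 12 lists were read for peaks that touched a gene's mm10 span or the 10 kb either side of it, the gene's window here.

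T-box factors are transcription factors that bind DNA through a shared domain and set up mesoderm, endoderm, heart and limb. In undifferentiated mESCs most of their genes are silent. Genes of this kind typically lie in CpG-rich chromatin bearing H3K27me3, the mark written by the Polycomb complex PRC2. Many such promoters also carry H3K4me3, the mark of active and poised promoters, while H3K27ac marks active promoters and enhancers.

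The lists differ in length, which bears on every count below. The H3K4me3 lists held 8055 to 8131 peaks in knockout and 2431 to 2859 in control cells. The H3K27ac lists held 15058 to 15271 peaks in knockout and 13520 to 15541 in control cells, and the H3K27me3 lists 11349 to 11446 in knockout and 6312 to 7203 in control cells. The lists carry positions and widths alone, the narrowest peaks are 501 bp wide, and the read depth behind each list is unknown. H3K27ac was called in both knockout lists at 10 of 10 naive stem cell marker genes and in both control lists at 9 of 10. Of all protein-coding genes 30.2% were called in both knockout lists and 25.1% in both control lists. At none of 8 fibroblast or 8 primitive endoderm marker genes was H3K27ac called in both lists of a condition. Of 8 trophectoderm marker genes Gata3 had H3K27ac in all 4 lists, as did 20.4% of all genes. Gata3 covered 1457 and 890 bp in the knockout lists and 1661 and 2708 bp in the control lists. With 2 libraries against 2, an exact two-sided permutation test cannot give a p below 0.333, so no difference below can pass a threshold of 0.05. Any gene whose knockout lists both lie above or both lie below both control lists reaches that p. The labels do not say that replicates were separate cultures, so the spread between them may be technical.

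Promoters from the RefSeq promoter table (GRCm38.p6, the assembly of mm10) run from 250 bases before to 50 after the transcription start. Of the 10 genes 7 had an entry there, with 8 starts in all. Starts of Tbx2, Tbx5 and Tbx15 were not used here, and their peaks are placed by the ends of the gene span. The 2 Tbx1 promoters are shown because Tbx1 was the only one of the 7 genes with peaks over a start base. Those of T, Eomes and Tbx18 were picked after their values were seen, for the peaks near their starts described below. Tbx4 and Tbx20 also had peaks within 1 kb of their starts, and their promoters are not shown. Each is printed 5′ to 3′ on the strand of the gene, with CpG dinucleotides in capitals, since CpG-rich promoters are where H3K4me3 and Polycomb marks are typically found.
T (chr17:8434173-8434472, plus strand): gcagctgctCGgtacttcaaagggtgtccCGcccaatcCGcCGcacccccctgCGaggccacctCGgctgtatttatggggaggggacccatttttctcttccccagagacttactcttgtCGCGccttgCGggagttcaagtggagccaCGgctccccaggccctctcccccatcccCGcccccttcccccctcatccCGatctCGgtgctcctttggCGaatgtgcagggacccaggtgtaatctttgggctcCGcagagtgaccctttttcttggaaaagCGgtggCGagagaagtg
Eomes (chr9:118477939-118478238, plus strand): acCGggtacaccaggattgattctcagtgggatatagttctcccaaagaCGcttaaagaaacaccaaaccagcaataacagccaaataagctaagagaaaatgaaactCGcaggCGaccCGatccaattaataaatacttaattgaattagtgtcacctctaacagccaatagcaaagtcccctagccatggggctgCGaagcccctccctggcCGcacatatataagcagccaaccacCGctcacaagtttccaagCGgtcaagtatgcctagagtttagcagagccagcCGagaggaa
Tbx1, start inside the span (chr16:18588850-18589149, minus strand): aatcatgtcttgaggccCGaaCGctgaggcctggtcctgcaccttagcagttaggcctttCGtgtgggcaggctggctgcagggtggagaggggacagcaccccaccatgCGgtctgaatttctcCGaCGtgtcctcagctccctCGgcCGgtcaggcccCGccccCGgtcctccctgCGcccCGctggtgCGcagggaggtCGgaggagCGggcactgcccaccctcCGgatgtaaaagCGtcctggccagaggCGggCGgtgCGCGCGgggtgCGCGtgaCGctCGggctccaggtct
Tbx1, start at the end of the span (chr16:18590622-18590921, minus strand): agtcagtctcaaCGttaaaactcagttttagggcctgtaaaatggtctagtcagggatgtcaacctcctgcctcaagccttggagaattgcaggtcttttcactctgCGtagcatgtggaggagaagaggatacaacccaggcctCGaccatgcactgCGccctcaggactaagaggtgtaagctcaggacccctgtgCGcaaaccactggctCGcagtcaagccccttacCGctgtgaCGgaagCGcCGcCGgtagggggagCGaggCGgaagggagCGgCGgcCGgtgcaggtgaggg
Tbx18 (chr9:87731211-87731510, minus strand): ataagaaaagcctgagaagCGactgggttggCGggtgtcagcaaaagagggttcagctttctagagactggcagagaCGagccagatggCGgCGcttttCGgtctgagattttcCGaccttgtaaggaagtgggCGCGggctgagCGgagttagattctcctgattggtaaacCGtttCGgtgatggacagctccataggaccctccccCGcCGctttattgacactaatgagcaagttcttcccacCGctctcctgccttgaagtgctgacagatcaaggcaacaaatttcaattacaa

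The promoters differed in CpG content. T had 17, Eomes 10, Tbx1 26 and 16 at its 2 starts, and Tbx18 15 CpG sites, against a median of 7 over 32851 promoters in the table. Tbx20 had 26, while Tbx4 had 8 and Tbx6 had 7. The T-box core motif GGTGTGA, searched on both strands (TCACACC is its other strand), was in 0 of the 8 promoters and in 3.98% of all promoters.

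H3K27me3 was the main mark at these genes in both conditions. It was called in both knockout lists at 7 of the 10 genes and in both control lists at 8. Of all protein-coding genes 20.0% were called in both knockout lists and 12.2% in both control lists. Eomes, Tbx1, Tbx4, Tbx5, Tbx15 and Tbx20 were called in all 4 lists, as were 10.2% of all genes, and Tbx6 in no list, like 62.5% of all genes. None of the 10 was called in the knockout alone (both knockout lists, no control list) or in the control alone, where 3.55% and 0.388% of all genes were. The 10 windows had 6.6% and 9.18% of their bases in H3K27me3 peaks in the knockout lists, and 3.28% and 5.27% in the control lists. Windows of all protein-coding genes had 0.822% and 0.862% in the knockout lists and 0.362% and 0.413% in the control lists. Median window length was similar, 39.1 kb for the 10 genes and 37.1 kb for all genes. The median gene of the 10 had 3501 and 4369.5 bp in peaks in the knockout lists and 1993 and 3354 bp in the control lists, where the median of all genes was 0 in each list.

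**Figure D1:**
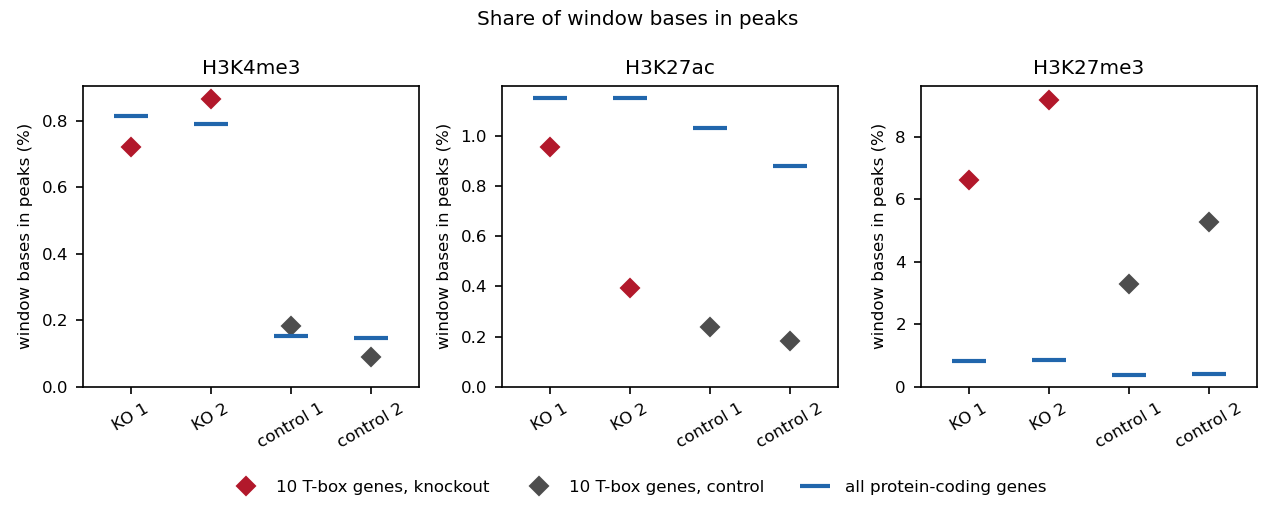
Percentage of window bases (gene span and 10 kb either side) lying in peaks, per library and mark. Diamonds are the 10 T-box genes together and blue dashes all protein-coding genes, and for H3K27me3 the diamonds lie at 3.28% to 9.18% while the dashes lie below 1%.

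Summed over the 10 windows, H3K27me3 covered 36.52 and 50.8 kb in the knockout lists, against 18.18 and 29.14 kb in the control lists. Both knockout sums lay above both control sums. The means were 43.66 ± 10.1 kb in knockout and 23.66 ± 7.75 kb in control cells (SD, n = 2 each), a 1.85-fold difference (log2 0.88). Over the whole lists the covered length was 2.15-fold larger in the knockout, and over the windows of all protein-coding genes 2.17-fold. These windows thus held 0.361% and 0.484% of the called bases of the knockout lists, and 0.407% and 0.568% of those of the control lists, ranges that overlap.

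Each knockout list exceeded each control list at Tbx1, Tbx2, Tbx15, Eomes and Tbx20. That is 5 of 10, where 12.3% of all genes met the same criterion. A gene with no H3K27me3 peak cannot meet it, and 62.5% of all genes had none in any list, against 1 of the 10. Inside the gene spans alone it was 2 of 10, a count with no matching share of all genes. Knockout minus control was 6283.5 bp at Tbx1 and 6930.5 bp at Tbx2.

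At Tbx1, a regulator of the pharyngeal arches and outflow tract (chromosome 16, 18580979 to 18590671), H3K27me3 covered 10561 and 10802 bp in the knockout lists and 2483 and 6313 bp in the control lists. The knockout values were close to each other and 2.43-fold the control mean (exact permutation p = 0.333). The widest peak there was 5653 and 8901 bp in the knockout lists and 1320 and 3932 bp in the control lists. Peaks reached the starts in knockout lists alone. The start inside the span lay under a peak in both knockout lists. The start at the end of the span lay under one in knockout replicate 1. Neither start lay under a peak in a control list. The knockout peaks over the starts also lay over the lncRNA gene Gm35369, whose span holds both starts. The nearest control peaks lay 1964 bp downstream of the inner start in replicate 1 and 1013 bp upstream of the outer start in replicate 2. The 2 knockout lists shared 8433 bp of called bases, so their domains lay in the same place.

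At Tbx2, a repressor in heart and limb development (chromosome 11, 85832615 to 85841948), the knockout lists covered 4452 and 12782 bp, against 0 and 3373 bp in the control lists. The knockout lists differed from each other more than the control lists did (exact permutation p = 0.333). The difference in means was 2765.5 bp without knockout replicate 2 and 11095.5 bp without knockout replicate 1. Inside the span alone the groups overlapped, with 1621 and 8217 bp in the knockout lists and 0 and 2072 bp in the control lists. Knockout replicate 2 held domains of 4064 bp beside the lower-coordinate end and 8217 bp over the span, where control replicate 2 held peaks of 501 to 802 bp. The peaks beside that end also lie over the lncRNA gene 2610027K06Rik.

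Tbx15, a gene of skeletal and skin development with the longest window of the 10 (chromosome 3, 99240348 to 99354260), covered 6494 and 6647 bp in the knockout lists and 2809 and 3461 bp in the control lists. The groups did not overlap, with a 2.1-fold ratio of means (exact permutation p = 0.333). All its H3K27me3 peaks ended within 20982 bp of the lower-coordinate end, and the rest of the span had none. The 2 knockout lists covered nearly equal lengths but shared only 631 bp, so the peaks lay in different places within that stretch.

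At Eomes, needed for definitive endoderm and trophoblast (chromosome 9, 118478186 to 118486132), H3K27me3 covered 1812 and 2975 bp in the knockout lists and 501 and 1503 bp in the control lists. At Tbx20, a heart factor (chromosome 9, 24720812 to 24774303), it covered 3067 and 3175 bp in the knockout lists and 501 and 2102 bp in the control lists. At each of these genes the knockout values exceeded the control values (exact permutation p = 0.333 each), but the difference lay outside the gene spans. Inside the span alone, knockout minus control was -186 bp at Eomes and -800.5 bp at Tbx20. The H3K27me3 peaks upstream of the Eomes start lay over the lncRNA gene Gm33408, whose span overlaps that start. Over the window the difference at Eomes was 1391.5 bp, but 810 bp without knockout replicate 2 and 890.5 bp without control replicate 1. At Tbx20 it was 1819.5 bp, but 1019 bp without control replicate 1. All 7 knockout peaks at Tbx20 lay upstream of its start, 830 to 7485 bp away, and 6 of them lay over the lncRNA gene Gm29824.

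**Figure D2:**
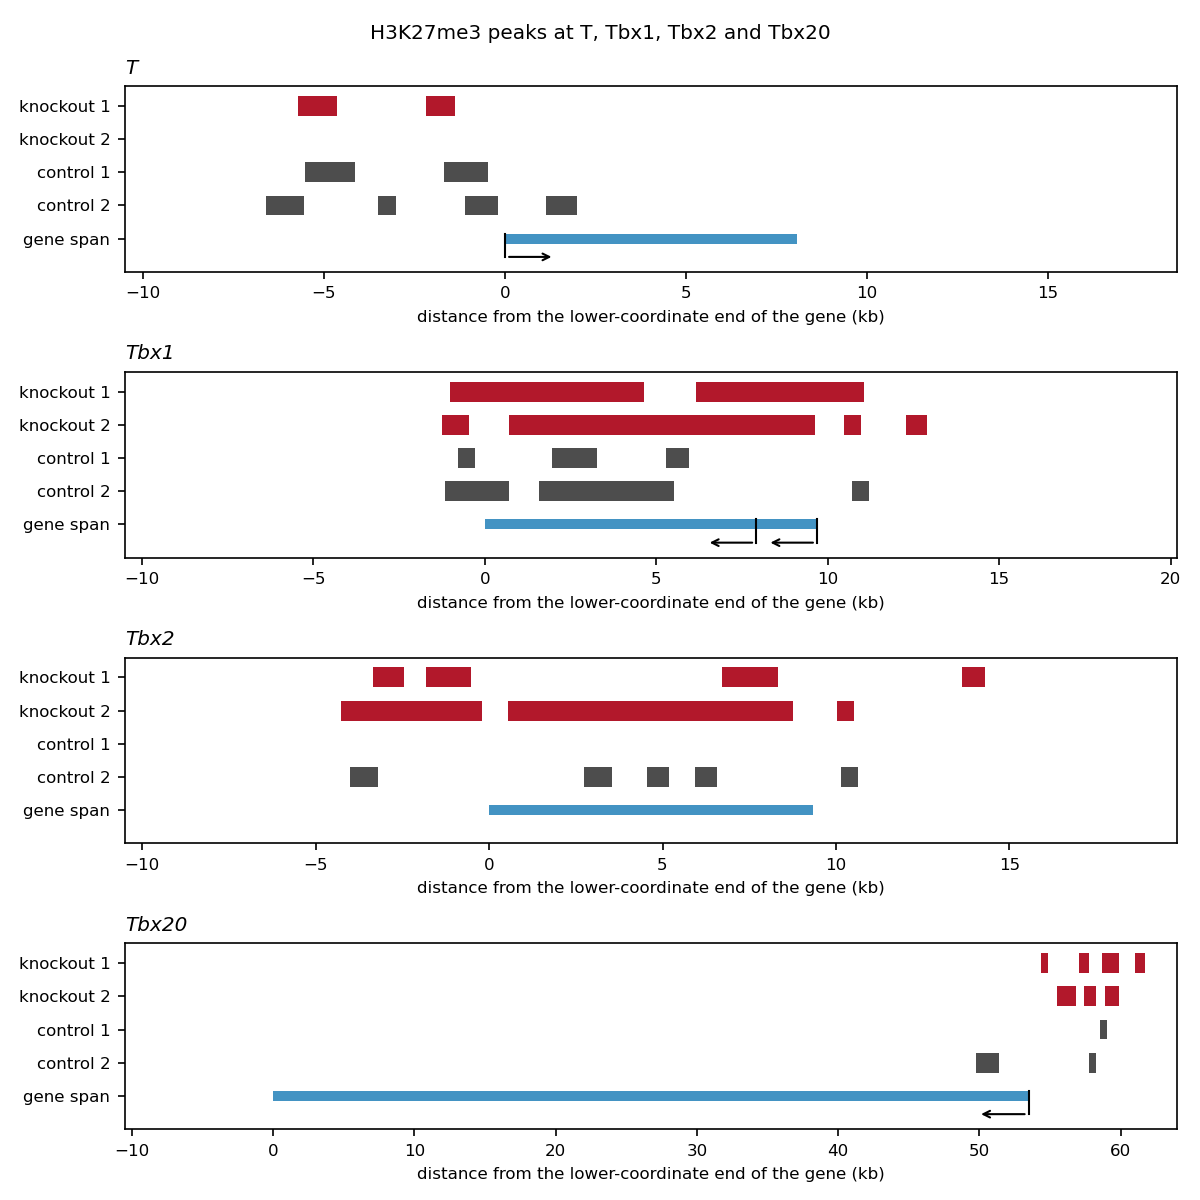
H3K27me3 peaks (bars) at T, Tbx1, Tbx2 and Tbx20 in the 2 knockout lists and the 2 control lists, by distance in kb from the lower-coordinate end of the gene. Blue bars are gene spans and arrows known starts, and the knockout domains at Tbx1 reach 8901 bp while knockout replicate 2 has no peak at T.

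T, the primitive streak and notochord factor (chromosome 17, 8434423 to 8442496), went the other way. H3K27me3 covered 1877 and 0 bp in the knockout lists, against 2600 and 3335 bp in the control lists. Both knockout lists lay below both control lists (exact permutation p = 0.333), as they did at 0.785% of all genes. The 62.5% of all genes with no H3K27me3 peak in any list could not meet this criterion. The difference of -2029 bp was -1090.5 bp without knockout replicate 2. Inside the span alone it was -432 bp and the groups overlapped, since only control replicate 2 had a peak there. Knockout replicate 2 had no peak of any mark in the T window. The control peaks came within 465 and 190 bp of the start, upstream of it, and control replicate 2 also held an 864 bp peak inside the gene. In knockout replicate 1 the nearest peak lay 1376 bp upstream. The peaks nearest the start also lie over the predicted gene LOC115486424, whose span overlaps the start of T.

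The values of Tbx4, Tbx5 and Tbx18 overlapped between conditions. Tbx4, a hindlimb factor (chromosome 11, 85886367 to 85916097), covered 3935 and 6853 bp in the knockout lists and 1503 and 4107 bp in the control lists, a difference in means of 2589 bp. Tbx5, a forelimb and heart factor (chromosome 5, 119796514 to 119885220), covered 4326 and 5564 bp in the knockout lists and 5290 and 4444 bp in the control lists, a ratio of 1.02. Tbx18, a factor of the sinus node and somites (chromosome 9, 87702800 to 87731260), covered 0 and 2004 bp in the knockout lists and 2492 and 501 bp in the control lists. Tbx6 (chromosome 7, 126781483 to 126785548), which directs cells to paraxial mesoderm, had no H3K27me3 peak in any list. It has the shortest window and lies between the protein-coding genes Ypel3 and Ppp4c.

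**Figure D3:**
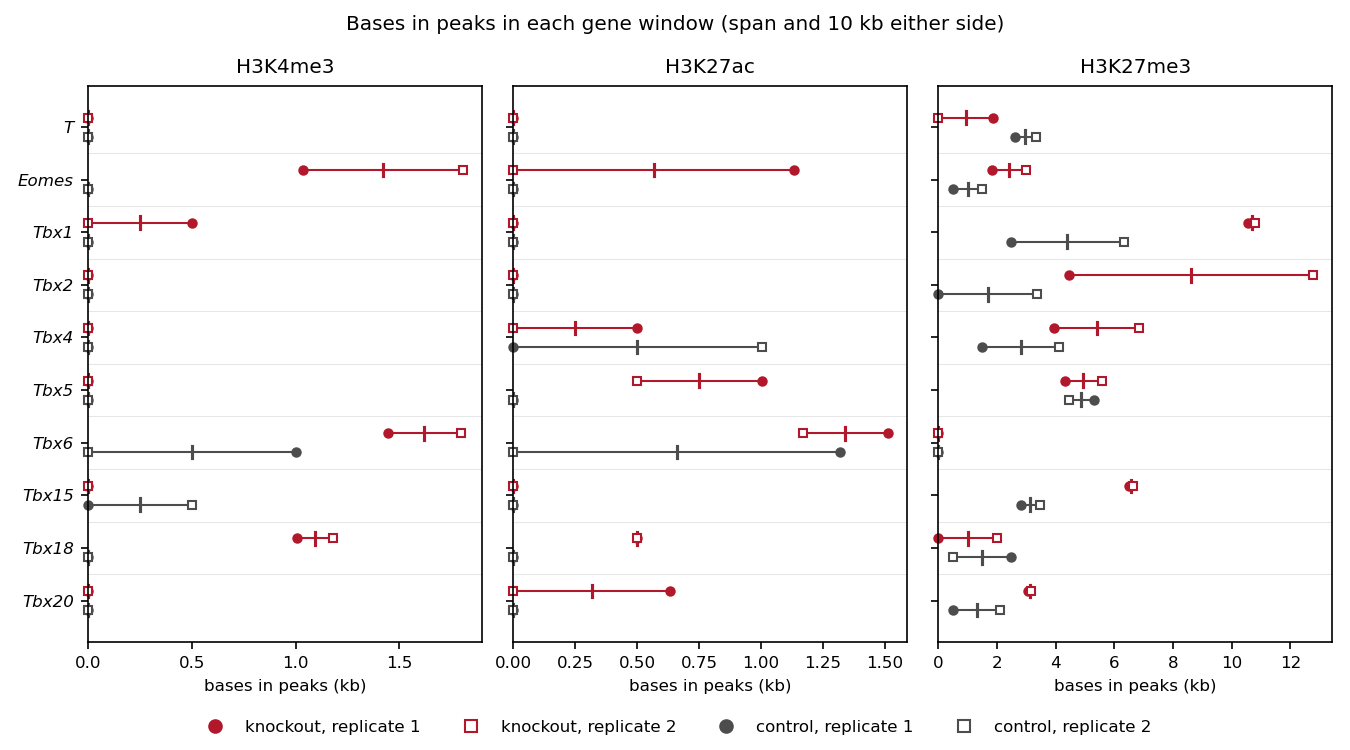
Bases in peaks (kb) in the window of each gene, per mark, with 1 point per library, lines joining the 2 replicates and a tick at their mean. Knockout rows are drawn above control rows, and for H3K27me3 Tbx1 reads 10561 and 10802 bp in knockout against 2483 and 6313 bp in control lists.

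H3K27me3 peaks at these genes were placed unevenly between replicates. Of the bases called in the 10 windows, the knockout lists shared 15913 bp, which is 43.6% of replicate 1 and 31.3% of replicate 2. The control lists shared 4981 bp, 27.4% of replicate 1 and 17.1% of replicate 2. Over the windows of all genes the shares were 35.3% and 33.7% within the knockout and 20.2% and 17.7% within the control lists. Of the shared knockout bases 8433 bp lay at Tbx1 and 3804 bp at Tbx2. At T and Tbx18, where 1 knockout list had no H3K27me3 peak, 0 bp were shared.

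H3K4me3 was called in the knockout alone next to the starts of Eomes and Tbx18. They are 2 of the 10 genes called in the knockout alone, while 16.5% of all genes were, so this count is near the background. With lists at equal length it was 0, and the difference in covered bases was 0 bp at Eomes and 591 bp at Tbx18. The narrowest knockout peaks kept at that setting were 1178 and 1149 bp. With Tbx6, 3 of 10 genes were called in both knockout lists, where 33.9% of all genes were. In both control lists 0 of 10 were called, against 5.85% of all genes, so 0 were called in all 4 lists (5.47% of all genes) or in the control alone (0.11%). The control lists also missed H3K4me3 at naive stem cell marker genes. Of these 10 genes it was called in both knockout lists at 10 but in both control lists at 4. Esrrb, 1 of these markers, had 0 bp in each control list. The H3K4me3 peak at Eomes was 1033 bp wide in knockout replicate 1 and 807 bp in knockout replicate 2. It started 329 and 560 bp downstream of the Eomes transcription start, and neither control list had one. In knockout replicate 1 this peak also covered the start of the lncRNA gene Gm33408, on the opposite strand. At Tbx18 the peaks were 1008 and 1182 bp wide in the knockout lists, starting 208 and 234 bp downstream, again with none in the control lists. The 2 knockout lists shared 802 bp at Eomes and 982 bp at Tbx18, so these peaks lay in the same place. Summed over each window the values were 1033 and 1809 bp at Eomes and 1008 and 1182 bp at Tbx18 in the knockout lists, and 0 bp in each control list (exact permutation p = 0.333 for each gene). The peaks next to the starts lay just past the printed promoters, inside the genes. In knockout replicate 2, however, 1002 of the 1809 bp at Eomes lay outside the gene span. They came from 501 bp peaks 10370 and 15655 bp past the start.

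Eomes is also a trophectoderm marker. The summed H3K4me3 of 8 trophectoderm marker genes, Eomes included, was 1033 and 2811 bp in the knockout lists and 0 bp in both control lists. Of the others, Krt8 and Ascl2 had 501 bp each in knockout replicate 2 alone, and Cdx2, Elf5, Gata3, Hand1 and Krt18 had none in any list.

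The other genes had little H3K4me3. T, Tbx2, Tbx4, Tbx5 and Tbx20 had no H3K4me3 peak in any list, like 47.3% of all genes. Tbx1 had a 501 bp peak in knockout replicate 1, and Tbx15 a 501 bp peak in control replicate 2, outside its span. Tbx6 covered 1444 and 1796 bp in the knockout lists and 1002 and 0 bp in the control lists. Its knockout lists both lay above its control lists, as at Eomes and Tbx18, and 31.6% of all genes met this criterion. The opposite order was seen at 0 of the 10 and at 0.114% of all genes. The Tbx6 peaks however lay over its neighbours. The knockout peaks of 1444 and 1148 bp covered the start of Ppp4c, which encodes a protein phosphatase subunit, and a 648 bp peak in knockout replicate 2 lay 57 bp past the start of Ypel3. Neither control list nor knockout list had an H3K4me3 peak in the Tbx6 span.

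Summed over the 10 windows, H3K4me3 covered 3.99 and 4.79 kb in the knockout lists and 1.0 and 0.5 kb in the control lists. That is 5.84-fold (log2 2.55), set beside 4.79-fold over the whole lists and 5.39-fold over the windows of all genes. The log2 value was 0.805 with lists at equal length, 1.82 with 25 kb either side, 3.13 without control replicate 1 and 3.46 without Tbx6. The share of window bases was 0.72% and 0.865% in the knockout lists, where all genes had 0.814% and 0.791%.

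**Figure D4:**
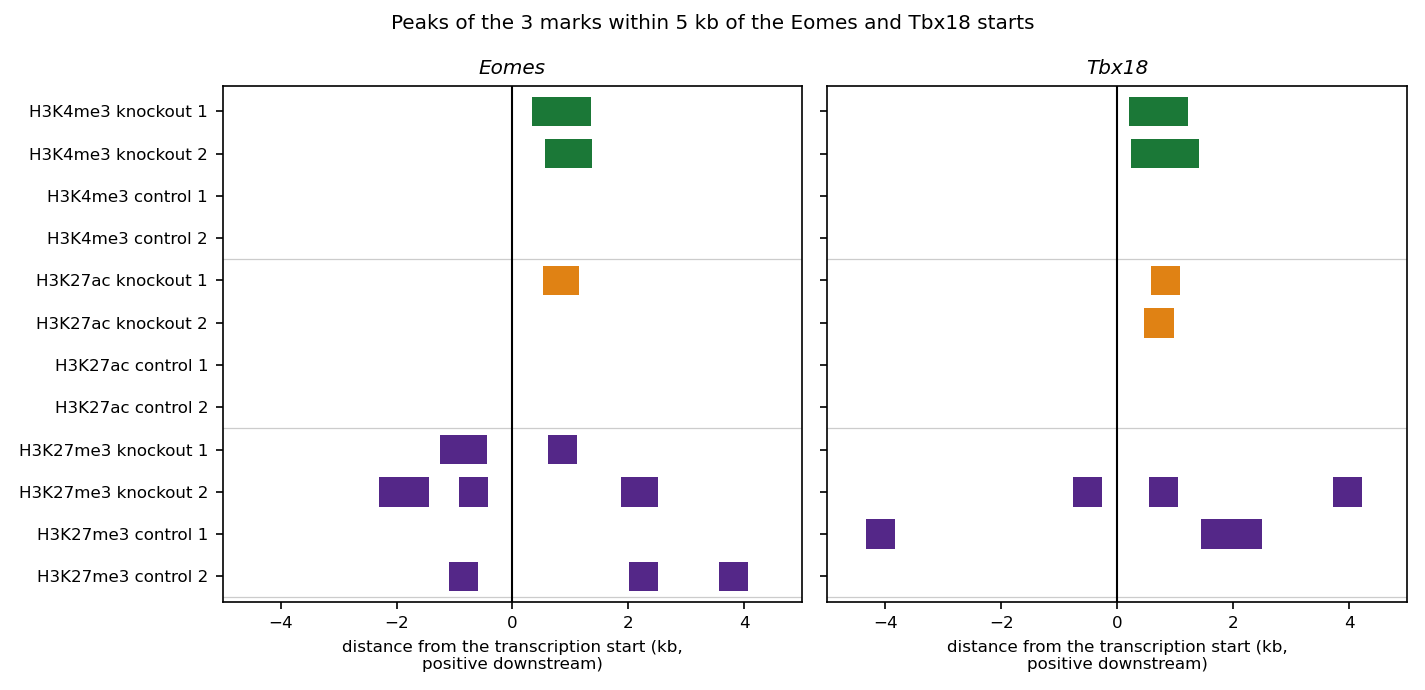
Peaks of the 3 marks within 5 kb of the starts of Eomes and Tbx18, by distance in kb along the direction of transcription, with 1 row per library and the start at 0. H3K4me3 appears in the knockout rows alone, 208 to 560 bp past the start, and H3K27ac lies within it where called.

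The labels name the H3K4me3 antibody for the H3K27ac libraries, and the mark in the titles was used here. H3K27ac was sparse at these genes, with 0.954% and 0.392% of window bases in the knockout lists and 0.239% and 0.181% in the control lists. All genes had 1.15% in each knockout list and 1.03% and 0.879% in the control lists. Tbx5 and Tbx18 were called in the knockout alone, 2 of 10, where 2.98% of all genes were, and they were also the 2 genes covered more in each knockout list (11.2% of all genes). Both counts were 0 with lists at equal length, and with peaks wider than 501 bp 0 genes were called in the knockout alone. At equal length the cut fell among the 501 bp peaks, which were kept or dropped at random. The counts of 0 at that setting could therefore differ in another draw. With Tbx6, 3 genes were called in both knockout lists, against 30.2% of all genes. In both control lists 0 were called (25.1% of all genes), so 0 were called in all 4 lists (20.4%) or in the control alone (1.11%). None was covered less in each knockout list, against 3.8% of all genes. At Tbx18 the peak was 501 bp wide in both knockout lists, 581 and 470 bp past the start and inside the H3K4me3 peak. At Tbx5 a 501 bp peak lay 38531 and 38920 bp past the lower-coordinate end, with 112 bp shared between the knockout lists, and replicate 1 held a second one. All of these peaks have the smallest width in the lists, so no narrower peak could have been called.

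The other H3K27ac peaks were called in 1 list of a condition or overlapped between conditions. Eomes covered 1132 and 0 bp in the knockout lists, and Tbx20 631 and 0 bp, with 0 bp in the control lists. Tbx4 covered 501 and 0 bp in the knockout lists and 0 and 1002 bp in the control lists. Tbx6 covered 1514 and 1168 bp in the knockout lists and 1320 and 0 bp in the control lists, over Ppp4c again. T, Tbx1, Tbx2 and Tbx15 had none in any list, like 44.3% of all genes. The sums were 5.28 and 2.17 kb in the knockout lists and 1.32 and 1.0 kb in the control lists. The ratio of 3.21 (log2 1.68) became log2 0.90 without knockout replicate 1, and the whole H3K27ac lists differed 1.12-fold.

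H3K4me3 and H3K27me3 peaks overlapped in the knockout at Eomes, Tbx1 and Tbx18 and in control cells at 0 of the 10 genes. Of all protein-coding genes, 4.89% had such an overlap in at least 1 pairing of knockout lists and 0.516% in at least 1 pairing of control lists. The labels do not tie H3K4me3 to H3K27me3 libraries, so each H3K4me3 list was set against both H3K27me3 lists of its condition. Of the 4 pairings of knockout lists 2 gave 2 genes and 2 gave 1 gene, with an overlap of 501 bp each time. At Eomes the overlap came from H3K27me3 of knockout replicate 1, which had a peak 616 bp past the start, and at Tbx18 from replicate 2, with a peak 545 bp past the start. Overlap of peaks in a population of cells does not show that both marks lie on the same nucleosomes. The knockout H3K4me3 lists held 4 and 6 peaks in the 10 windows and the control lists 2 and 1. With lists at equal length the overlap was at 0 genes in both conditions. The narrowest knockout H3K4me3 peaks kept there were 1178 and 1149 bp, wider than those at Eomes and Tbx1, so these overlaps could not remain. At Tbx18 the overlapping H3K27me3 peak was 501 bp wide, a width at which peaks were kept or dropped at random.

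Of the other T-box genes, Tbx3, which is active in naive mESCs, differed in its marks. It covered 4709 and 4209 bp of H3K4me3 in the knockout lists and 1542 and 628 bp in the control lists. For H3K27ac it covered 10419 and 7138 bp in the knockout lists and 7295 and 5033 bp in the control lists, and it had no H3K27me3 in any list. Of the 7 other T-box genes, Tbx21 and Tbr1 had H3K27me3 in all 4 lists, as did 10.2% of all genes. Tbr1 covered 2394 and 1411 bp in the knockout lists and 1372 and 501 bp in the control lists. Tbx21, a T-helper cell factor, covered 5672 and 2176 bp in the knockout lists and 501 and 2278 bp in the control lists, which overlap. Mga had H3K27ac alone, with 1604 and 1954 bp in the knockout lists and 1312 and 0 bp in the control lists. Like Tbx3, Tbx10, Tbx19, Tbx22 and Mga had no H3K27me3 peak, so 5 of the 7 had none in any list, as did 62.5% of all genes.

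Genes that act with T-box factors in mesoderm and heart had similar H3K27me3 counts. Of 36 such genes 26 were called in both knockout lists and 24 in both control lists, 22 of them in all 4 lists, where 20.0%, 12.2% and 10.2% of all genes were. The 22 include Wnt3, Wnt3a, Fgf8 and Gsc, the first in list order. At 14 of the 36 each knockout list exceeded each control list, against 12.3% of all genes, and the reverse held at 0 (0.785% of all genes). Genes with no H3K27me3 peak in any list, 6 of the 36 and 62.5% of all genes, could meet neither criterion. Wnt3, a primitive streak signal upstream of T, covered 12110 and 11220 bp in the knockout lists and 3002 and 4881 bp in the control lists. For H3K4me3, Cdx1, Dll3, Hes7 and Isl1 were called in the knockout alone, 4 of 36, a smaller share than the 16.5% of all genes. Hes7, a somite clock gene downstream of Tbx6, had the widest coverage of these 4, with 1692 and 2440 bp in the knockout lists. Tdgf1 and Fgf4 had H3K4me3 in all 4 lists, 2 of 36, against 5.47% of all genes. For H3K27ac, Mesp2 was called in both knockout lists alone with 501 bp each (1 of 36, against 2.98% of all genes), and Msgn1 in both control lists alone with 501 bp each (1 of 36, against 1.11%). Nodal, Tdgf1, Fgf4 and Cdx4 were among the 5 of 36 genes with H3K27ac in all 4 lists, against 20.4% of all genes.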

How the data were processed

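ChIP-seq peak lists from mESCs were used, 1 per library, for 3 marks in Mettl14 knockout and control cells. Groups and replicate numbers came from the sample titles. The 4 input libraries were not used. The submitters' processing notes list build mm10 and, as tools, HOMER, SAMtools, Bowtie2 2.4.1, Trimmomatic 0.38 and CASAVA. The sources used here do not give the peak caller, its settings or the use of inputs and spike-in chromatin. The deposited score column is the constant 1 and was not used. Peak positions (other columns, in bases, as deposited by the authors) are the only measurement.

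Gene spans came from RefSeq (GRCm38.p6). A peak counted where at least 1 bp touched the window of the gene span and 10 kb either side, and covered bases were counted inside the window. Each gene's knockout minus control difference was tested over all 6 assignments of the lists, as an exact permutation test (two-sided). Sums over the genes were not tested. All 10 genes, their protein-coding neighbours where a peak lay over them, and up to 4 genes per class of the other lists in list order were named, with lncRNA neighbours, Wnt3, Tbx21 and Tbr1 values picked afterwards. The genes and lists were chosen with earlier results of these data known. The counting was tested on simulated data, where 100 of 100 planted genes among 2000 were recovered with 0 extra. Alternatives were other windows, start windows of 1 kb (both span ends for genes with no start), equal list length and wider peaks. Peak centres, omitted replicates and a replicate block were also used. For equal length the widest peaks of each list were kept, with ties in width broken at random. Python 3.11.15, numpy 2.4.6 and pandas 2.3.3 were used.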

Additional observations from a re-analysis of the deposited data

How the results depend on the processing

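Results with other settings are given as the log2 ratio of covered length and 2 counts of genes, those called in both knockout lists alone and those covered more in both knockout lists. For H3K4me3 the ratio, 2.55, was 1.82 with 25 kb either side, 0.805 with lists at equal length and 3.46 without Tbx6 (chosen after seeing the data). Leaving out 1 list gave 2.13 to 3.13, the highest without control replicate 1. With 0 kb either side, 1 kb at the start or peaks wider than 501 bp it had no value, as the control sums were 0. The gene counts, 2 and 3, were both 0 at equal length, where the narrowest knockout peaks kept were 1178 and 1149 bp, and 1 gene was called in the knockout alone with 25 kb. For H3K27ac the ratio, 1.68, was 3.03 with 0 kb and 0.64 with 25 kb, and leaving out 1 list gave 0.90 to 2.19, the lowest without knockout replicate 1. Its counts, 2 and 2, were 1 and 1 with 1 kb at the start, 0 and 0 at equal length, and 0 and 1 with peaks wider than 501 bp. At equal length its cut fell among the 501 bp peaks, which were kept or dropped at random. Leaving out 1 list gave 2 to 4 and 2 to 5, both highest without knockout replicate 2. For H3K27me3 the ratio, 0.88, was 1.78 with 1 kb at the start. Leaving out 1 list gave 0.583 to 1.264. Its counts, 0 and 5, were 2 called alone with 1 kb at the start, 1 with peaks wider than 501 bp, and 2 covered more with 0 kb. Leaving out 1 list gave 0 to 1 (1 without control replicate 2) and 5 to 7. With 0 kb the H3K27me3 difference at Eomes was -186 bp and at Tbx20 -800.5 bp, since the peaks lie in the flanks. The overlap of H3K4me3 and H3K27me3, at 3 genes in the knockout, was at 0 genes at equal length. The H3K4me3 peaks at Eomes and Tbx1 were too narrow to be kept at that setting. Other causes were not tested.

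With a replicate block the ratios were 2.62 for H3K4me3, 1.56 for H3K27ac and 0.904 for H3K27me3, and 3, 3 and 6 genes were covered more in the knockout list of each pair. Deviations of same-numbered lists correlated at 0.005, 0.007 and -0.015 over genes. These values cannot show whether same-numbered lists shared a culture or batch. The unknown depth limits every absence of a peak.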
